A study of Mus musculus with 20 samples.

Results

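Acod1, the enzyme that makes itaconate, and 8 enzymes of the tricarboxylic acid cycle were followed in mouse bone marrow-derived macrophages (BMDM). These 9 genes (Acod1, Cs, Idh2, Idh3a, Ogdh, Sdha, Sdhb, Fh1 and Mdh2) were chosen by their symbols among the 14456 genes of the table of normalized counts, and all 9 were listed and passed the filter on low values, which kept genes averaging 10 or more normalized counts. The set was selected with the difference between high and normal glucose in these libraries already known, so the values of the members in that contrast are given as a description, and no test of them is reported.

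BMDM were grown with the growth factor M-CSF from marrow of wild-type C57BL/6 mice. In the first experiment, 4 libraries were made from BMDM held in high glucose (25 mM) over 24 h. Another 4 came from normal glucose (5.5 mM), to which 19.5 mM mannitol, a sugar alcohol, was added to balance the osmotic load. In the second, naive BMDM received for 24 h either PBS, exosomes made by BMDM in normal glucose (BMDM-NG-exo) or exosomes made by BMDM in high glucose (BMDM-HG-exo), with n = 4 in each arm. The dose was 2000000000 particles in each ml. Exosomes are small vesicles released by cells. The glucose level of the medium of the recipient cells was not given in the sources used here. Total RNA was sequenced, at 34016445 to 56310712 reads counted in genes per library (median 43311931). The labels did not say whether the glucose libraries came from separate animals or cultures, so p-values in that experiment measure only the spread between these libraries, which may be technical.

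The 8 macrophage markers (among them Adgre1, Csf1r and Cd68) were all listed. All 5 markers of dendritic cells and all 6 of lymphocytes were missing from the list of genes, and the 5 listed markers of neutrophils and their precursors, of 8, summed to 165 to 378 normalized counts per library in the 20 libraries. In bulk RNA, fewer cells of a kind and less RNA of a gene per cell cannot be told apart.

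The tricarboxylic acid cycle runs in the mitochondrial matrix and oxidises the acetyl group of acetyl-CoA, passing the electrons to the respiratory chain. Aconitate decarboxylase 1, encoded by Acod1 and also known as Irg1, diverts cis-aconitate, an intermediate between citrate and isocitrate, out of the cycle and into itaconate. In macrophages Acod1 is known as a gene strongly induced by inflammatory signals and interferons. Itaconate competes with succinate at succinate dehydrogenase, and it modifies the sensor Keap1, which releases the transcription factor Nrf2 (Nfe2l2).

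The stretches before the start sites of Acod1 and Idh2, the members that lay highest and lowest in high glucose relative to normal glucose, are shown because their base composition differed. Promoter windows from RefSeq (build GRCm38.p6, 250 bases before to 50 after each start) were found for 8 of the 9 genes, with no entry for Idh3a. Capitals mark a TATAAA box, the 9-base NF-kappaB motif GGAAATTCC or a CCAAT box, on either strand, and the 250 bases before the start are printed (Acod1 chr14:103046762-103047011, plus strand, and Idh2 chr7:80115351-80115600, minus strand).
Acod1: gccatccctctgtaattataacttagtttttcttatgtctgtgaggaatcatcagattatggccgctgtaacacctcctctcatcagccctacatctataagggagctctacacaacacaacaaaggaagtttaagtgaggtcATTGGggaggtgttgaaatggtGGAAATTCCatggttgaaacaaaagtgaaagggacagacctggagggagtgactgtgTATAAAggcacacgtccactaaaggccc
Idh2: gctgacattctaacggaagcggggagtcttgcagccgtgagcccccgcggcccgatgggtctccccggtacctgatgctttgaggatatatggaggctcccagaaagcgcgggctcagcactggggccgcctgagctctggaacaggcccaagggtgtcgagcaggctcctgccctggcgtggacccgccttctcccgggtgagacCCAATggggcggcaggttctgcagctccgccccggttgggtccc

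The 300-base window of Acod1 had 47.0% G and C bases and 2 CpG dinucleotides, against a median of 52.7% and 7 CpG over 32851 RefSeq promoters. In the window of Idh2 these were 68.3% and 20 CpG, and in those of the 6 other matched cycle enzymes 11 to 37 CpG were counted. TATAAA began 28 bases before the start of Acod1 and GGAAATTCC began 85 bases before it. TATAAA was present in 13.6% of all promoters and GGAAATTCC in 0.317%. The 12 windows of the 7 matched cycle enzymes held neither. That absence says little, since GGAAATTCC is rare and 6 of the 12 were neighbouring or overlapping windows of Ogdh. Motifs for the interferon response, AP-1, ETS, NRF1 and the antioxidant response were also searched as fixed patterns of letters. The window of Acod1 held no exact match to any of them. Among the matched cycle enzymes, only Sdhb held any of these, the ETS motif. In all promoters they were present in 3.44%, 7.81%, 8.86%, 0.971% and 12.4%, in that order. CCAAT, which 37.4% of all promoters held, was present in the windows of Cs and Idh2 (forward strand), of Acod1, Sdha, Sdhb and Fh1 (reverse strand) and of Ogdh (both strands). A match is a run of letters and not a measured site. Near matches were not searched for, so the missing matches in the window of Acod1 do not show that related elements are absent.

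Acod1 was the least abundant member and by far the most variable. In normalized counts divided by exon length in kilobases, the mean over the 20 libraries was 61.3 for Acod1 and 143 for Idh3a, the catalytic subunit of the NAD-dependent isocitrate dehydrogenase. Fh1, the fumarase, stood at 357 per kilobase and Idh2, the NADP-dependent isocitrate dehydrogenase, at 592. Citrate synthase (Cs) had 795 per kilobase, Ogdh, the first subunit of the 2-oxoglutarate dehydrogenase complex, 956, and the malate dehydrogenase Mdh2 991. The highest levels per length were those of the succinate dehydrogenase subunits Sdhb, the iron-sulphur protein, at 1262 and Sdha, the flavoprotein, at 1842.

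**Figure D1:**
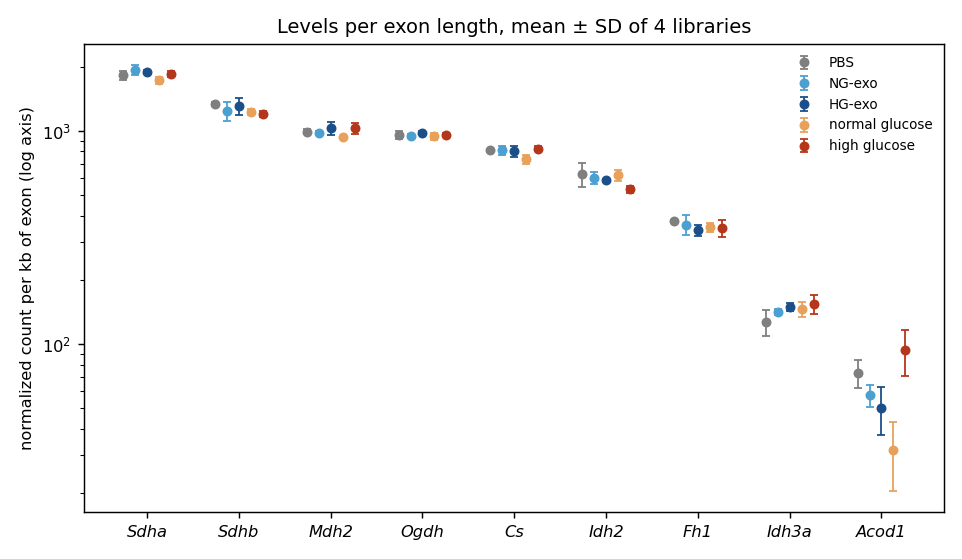
Level of each member in normalized counts per kilobase of exon, on a log axis, as the mean of 4 libraries with the SD as error bar, in each of the 5 groups. The order runs from Sdha at 1842 to Acod1 at 61.3 (means over 20 libraries), and the groups are spread visibly apart for Acod1.

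Across the 20 libraries, Acod1 ranged 6.93-fold, from 47.8 to 331 normalized counts, with a coefficient of variation of 40.5%. The cycle enzymes varied far less, with coefficients of variation between 3.02% for Ogdh and 10.2% for Idh3a and ranges between 1.11-fold and 1.61-fold. Counting error was not negligible for Acod1. Its reads numbered from 57 in normal glucose library 6 (exact 95% Poisson interval 43.2 to 73.9, counting error only) to 304 in high glucose library 6 (271 to 340). Counting alone would give a coefficient of variation of 6.44% to 11.0% within a group, and the observed values lay between 11.9% in BMDM-NG-exo and 35.7% in normal glucose.

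**Figure D2:**
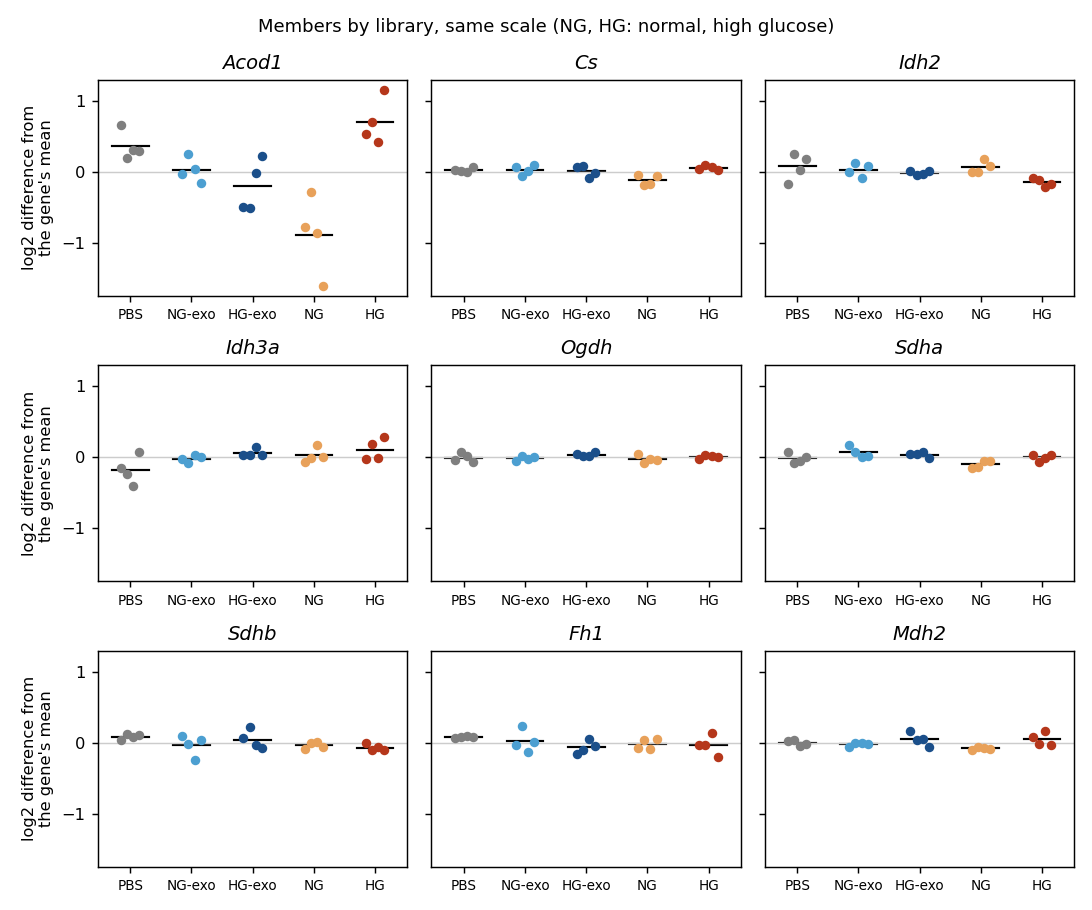
Each panel shows 1 member in 20 libraries, as the difference of log2(normalized count + 1) from the mean of that gene over all libraries, on the same scale in all panels, with a line at each group mean. Acod1 spans more than the 8 cycle enzymes, whose group means differ by 0.06 (Ogdh) to 0.28 (Idh3a) on the log2 scale against 1.56 for Acod1.

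In high glucose Acod1 stood at 214, 240, 198 and 331 normalized counts (libraries 1, 2, 4 and 6), and in normal glucose at 85, 121, 80 and 48 (libraries 1, 3, 5 and 6). The lowest library in high glucose lay above the highest in normal glucose, and within normal glucose library 6 was the lowest and library 3 the highest. The group means were 246 ± 59.4 and 83.5 ± 29.8 normalized counts (SD, n = 4), a log2 fold change of 1.59 ± 0.21 (SE) on the log2(normalized count + 1) scale, or 3.01-fold. Set against citrate synthase per kilobase in the same library, Acod1 was 11.4 ± 2.92% of Cs at the higher glucose level and 4.39 ± 1.73% at the lower (SD, n = 4).

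**Figure D3:**
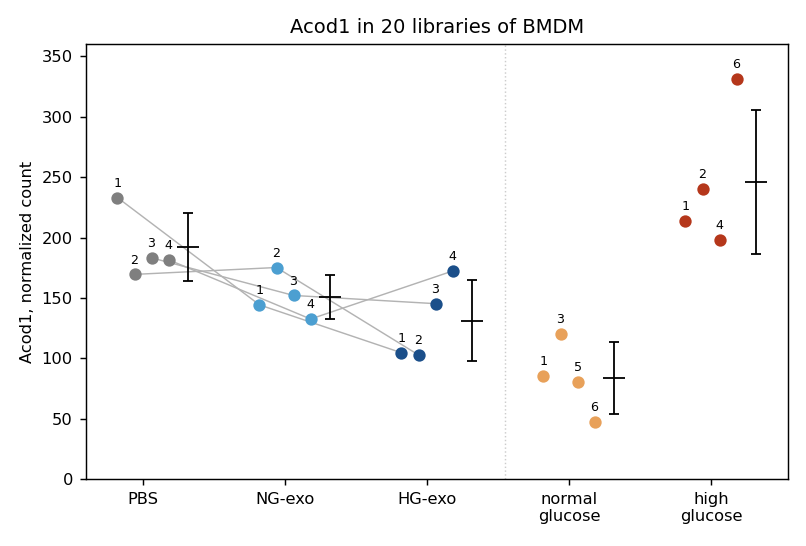
Normalized count of Acod1 in each of the 20 libraries, numbered by library within the group, with the group mean and SD as a bar beside the points. Grey lines join the exosome libraries that carry the same date. The 4 high glucose libraries (198 to 331) lie above the 4 normal glucose libraries (48 to 121), and 3 of the 4 lines end lower for HG-exo than for NG-exo.

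Around the cycle, the differences between high and normal glucose were small and ran in both directions. Acod1 and Cs lay higher and Idh2 lay lower, and these were values known when the set was chosen.

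Cs, which forms citrate from acetyl-CoA and oxaloacetate, stood at 4690, 4909, 4800 and 4656 normalized counts in high glucose and at 4448, 4024, 4083 and 4414 in normal glucose. All high glucose libraries lay above all normal glucose libraries, with a log2 fold change of 0.17 ± 0.04 (SE). A similar sequence is annotated for this gene (Csl, 91.9% identity over 1522 aligned bases, and a shorter match in Gm48254), and neither was among the genes of the table. Any reads shared with them could add to or be missing from Cs, and the share of such reads was not measured.

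Idh2, which makes 2-oxoglutarate and NADPH in mitochondria, went the other way. It stood at 1432, 1413, 1312 and 1354 normalized counts in high glucose and at 1521, 1526, 1738 and 1619 in normal glucose, so that all high glucose libraries lay below. The log2 fold change was -0.22 ± 0.06 (SE). Mdh2, which regenerates oxaloacetate from malate, had 3724, 3497, 3940 and 3462 normalized counts in high glucose and 3299, 3379, 3361 and 3314 in normal glucose. These groups did not overlap either, with a log2 fold change of 0.13 ± 0.05 (SE). Groups were without overlap for 4 of the 9 members, against 16.3% of all genes tested, and nothing is read from that count, since this contrast was known at the choice.

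The other 5 enzymes overlapped between high and normal glucose. Their log2 fold changes were 0.10 for Sdha, 0.08 for Idh3a, 0.03 for Ogdh, -0.01 for Fh1 and -0.03 for Sdhb. The subunits of succinate dehydrogenase, the enzyme that itaconate inhibits, thus lay at 7594 ± 248 (Sdha) and 2692 ± 82.9 (Sdhb) normalized counts in high glucose and at 7109 ± 257 and 2751 ± 89.0 in normal glucose (SD, n = 4). Per kilobase, Idh2 was 3.49 ± 0.40 times Idh3a in high glucose (range 3.02 to 3.97) and 4.26 ± 0.10 times in normal glucose (4.16 to 4.36), with no overlap. Nothing further is read from this ratio, since the lower Idh2 was known at the choice and Idh3a itself overlapped.

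The recipients of exosomes gave values that did not enter the choice of the genes. None of the 9 members passed the test (limma, adjusted by Benjamini-Hochberg over all genes, below 0.05, with a log2 fold change of 0.15 or more in size) in any of the 4 exosome comparisons. Over all 14413 genes tested, 4.84% passed for BMDM-HG-exo against PBS, 3% for BMDM-NG-exo against PBS, 0.0139% for BMDM-HG-exo against BMDM-NG-exo and 0.201% for BMDM-HG-exo against PBS and BMDM-NG-exo combined. At an unadjusted p-value under 0.05 the member counts were 3, 0, 0 and 1, and edgeR and DESeq2 on the recovered reads called 0 members in each. The groups were without overlap for 1 member with BMDM-HG-exo against PBS, 1 between the exosome groups, 0 with BMDM-NG-exo against PBS and 0 against the combined controls, where 10%, 3.86%, 8.27% and 1.17% of all genes were. These comparisons share libraries and are given side by side.

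Acod1 stood at 233, 170, 183 and 182 normalized counts with PBS (libraries 1 to 4), at 144, 175, 152 and 133 with BMDM-NG-exo and at 105, 103, 145 and 172 with BMDM-HG-exo. The groups overlapped, since BMDM-HG-exo library 4 lay above PBS library 2 and BMDM-NG-exo library 2 did as well. The group means were 192 ± 28.1, 151 ± 18.0 and 131 ± 33.6 normalized counts (SD, n = 4).

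Relative to PBS, the log2 fold change of Acod1 under BMDM-HG-exo was -0.57 (95% interval -0.95 to -0.19, adjusted p = 0.0706, limma) and was lower on 4 of 4 dates, with log2 differences of -1.15 to -0.08. This did not pass the threshold with all 12 libraries. Over 11 other settings with all libraries the adjusted p-value lay between 0.0518 and 0.139, and with 1 library left out it lay between 0.0236, without BMDM-HG-exo library 4, and 0.242 (limma, edgeR or DESeq2). Without that library the log2 fold change was -0.71.

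With BMDM-NG-exo, Acod1 had a log2 fold change of -0.34 against PBS (95% interval -0.72 to 0.04, adjusted p = 0.449) and was lower on 3 of 4 dates. Between the exosome groups, the log2 fold change of BMDM-HG-exo against BMDM-NG-exo was -0.23 (-0.61 to 0.15, adjusted p = 0.925, limma), again lower on 3 of 4 dates, with library 4 the exception at 0.38. Against the combined controls it was -0.40 (-0.74 to -0.05, adjusted p = 0.394, limma). The interval between the exosome groups thus left room for a level of Acod1 lower by 0.61 on the log2 scale or higher by 0.15.

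**Figure D4:**
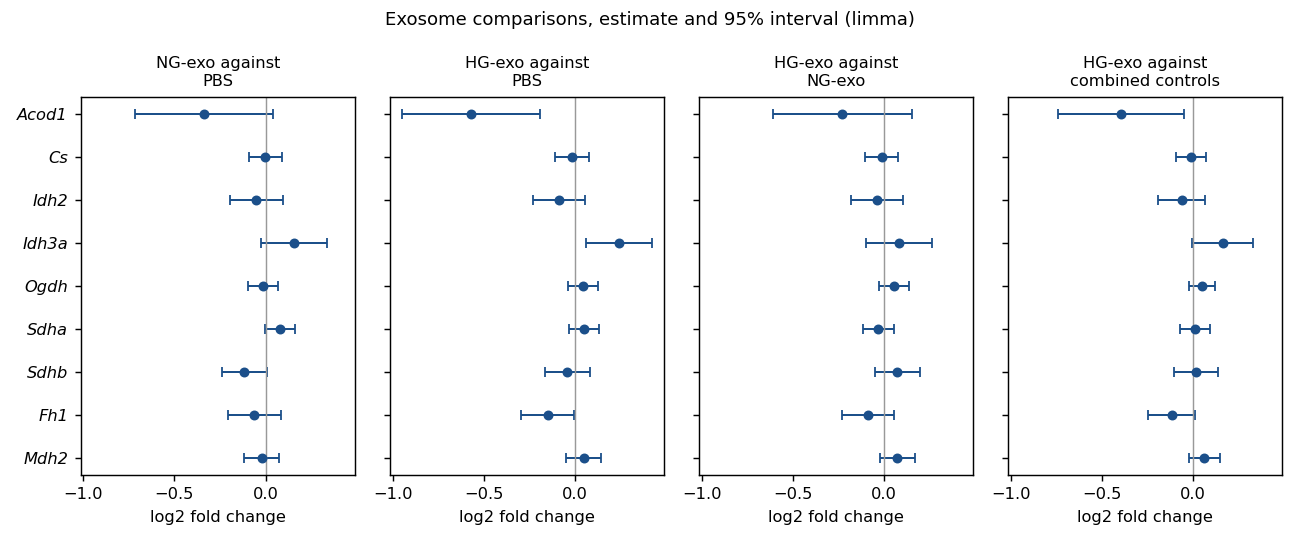
Log2 fold change of each member (point) with its 95% interval (bar, limma, unadjusted) in the 4 exosome comparisons, on a common axis. Acod1 has the widest intervals and lies below 0 in all 4 panels, at -0.57 against PBS for HG-exo, and no member passed the adjusted threshold.

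Among the cycle enzymes, Idh3a had the largest difference between BMDM-HG-exo and PBS. It stood at 653, 614, 545 and 763 normalized counts with PBS, at 710, 684, 736 and 724 with BMDM-NG-exo and at 741, 742, 802 and 739 with BMDM-HG-exo. PBS library 4 was above all BMDM-NG-exo libraries and above 3 of the 4 BMDM-HG-exo libraries, while the other PBS libraries lay below all exosome libraries. The log2 fold change of BMDM-HG-exo against PBS was 0.24 (95% interval 0.06 to 0.42, adjusted p = 0.125, limma). Without PBS library 4 it was 0.33 with an adjusted p-value of 0.0261 (limma), so that whether Idh3a passed depended on this library.

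Between the exosome groups, all BMDM-HG-exo libraries lay above all BMDM-NG-exo libraries for Idh3a, the 1 member with no overlap there. The separation was narrow, with the lowest BMDM-HG-exo library at 738.6 and the highest BMDM-NG-exo library at 736.1 normalized counts. That gap is well within counting error, which alone would give a coefficient of variation of 3.55% and 3.54% in these groups. The log2 fold change was 0.08 (-0.10 to 0.26, adjusted p = 0.945, limma). The ratio of Idh2 to Idh3a per kilobase was 4.99 ± 0.85 with PBS, 4.28 ± 0.40 with BMDM-NG-exo and 3.93 ± 0.20 with BMDM-HG-exo (SD, n = 4), with overlapping ranges between PBS (4.08 to 5.81) and BMDM-HG-exo (3.65 to 4.09).

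Fh1, which hydrates fumarate to malate, stood at 1265, 1277, 1296 and 1283 normalized counts with PBS and at 1078, 1127, 1250 and 1169 with BMDM-HG-exo. The PBS libraries were close together, with a coefficient of variation of 0.991%, below the 2.98% that counting alone would give, and all 4 BMDM-HG-exo libraries lay below them. The log2 fold change was -0.15 (95% interval -0.29 to -0.01, adjusted p = 0.274, limma). With BMDM-NG-exo, Fh1 ranged from 1106 to 1424 and overlapped both other groups. Fh1 overlaps the gene Kmo on the opposite strand, and the reads were counted by strand.

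None of the remaining 6 enzymes passed in the exosome comparisons. Cs had log2 fold changes of -0.02 for BMDM-HG-exo against PBS (95% interval -0.11 to 0.08), 0.00 for BMDM-NG-exo against PBS and -0.01 between the exosome groups. For Idh2 the value against PBS was -0.09 (-0.23 to 0.05), for Sdhb -0.04 (-0.17 to 0.08), for Ogdh 0.04 (-0.04 to 0.13), for Mdh2 0.05 (-0.05 to 0.15) and for Sdha 0.05 (-0.03 to 0.13). For BMDM-NG-exo against PBS, the values farthest from 0 were -0.12 for Sdhb (-0.24 to 0.01, adjusted p = 0.422, limma) and 0.08 for Sdha (-0.00 to 0.16, adjusted p = 0.388, limma).

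Seen over all 5 groups, Acod1 ran from high glucose (246 normalized counts) through PBS (192), BMDM-NG-exo (151) and then BMDM-HG-exo (131) down to normal glucose (83.5). Every neighbouring pair in that order overlapped between libraries. The same held for the neighbours in the order of each cycle enzyme, except that Idh2 was lower in all high glucose libraries (1312 to 1432) than in all BMDM-HG-exo libraries (1478 to 1540). The order across the 2 experiments is a description, since the sources used here do not give the glucose level of the recipients.

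No cycle enzyme followed Acod1 closely. Across the 20 libraries, which share groups, Pearson's r of log2(normalized count + 1) with Acod1 was between -0.44 (Idh2) and 0.40 (Cs) for the 8 cycle enzymes, and after each group mean was subtracted between -0.62 (Cs) and 0.20 (Idh3a). Of 11718 genes averaging 50 or more normalized counts, those most like Acod1 over the 20 libraries were Tcof1 (r = 0.87), Gmip (0.85), Bcl6 (0.83), Pla2g7 (0.83) and Tma16 (0.83). After the group means were subtracted they were Gatad2b (0.87), Tspoap1 (0.85), Carm1 (0.85), BC005537 (0.83) and Crybg1 (0.79), with no gene on both lists. For the first 5 genes, r lay between 0.88 and 0.96 over the 8 glucose libraries, whose contrast was known at the choice. Over the 12 exosome libraries it lay between 0.39 and 0.68. After the group means were subtracted it lay between 0.03 (Pla2g7) and 0.61 (Tcof1). Tspoap1, of the second list, had r = -0.33 over all 20 libraries. Bcl6 is a transcriptional repressor and Pla2g7 encodes a secreted phospholipase that hydrolyses platelet-activating factor.

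Few other genes of the cycle and its entries passed the test. Over all 14425 genes tested in high against normal glucose, 13.3% passed, 7.74% higher and 5.53% lower. Of 9 other cycle genes (Idh3b, Idh3g, Dlst, Dld, Sucla2, Suclg1, Suclg2, Sdhc, Sdhd), 0 passed the test in any of the 5 comparisons. Their median log2 fold change in high glucose was -0.01, with Suclg2, a subunit of succinate-CoA ligase, at -0.18 and Suclg1 at -0.10 as the values farthest from 0. With BMDM-HG-exo against PBS, Suclg2 had -0.28 and Dlst, a subunit of the 2-oxoglutarate dehydrogenase complex, -0.12. The 4 assembly factors of succinate dehydrogenase also gave 0 calls, with Sdhaf3 at -0.35 and Sdhaf4 at -0.19 in high glucose and at 0.23 and -0.33 with BMDM-HG-exo against PBS. Of 15 genes of general mitochondrial content, 1 passed in high glucose, Letm1 (0.22), with 13.3% of all genes called, and 0 passed in the exosome comparisons. The call of Letm1 was lost without a trend in the spread.

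Of 13 listed genes of pyruvate entry into the cycle, 2 fell in high glucose, where 5.53% of all genes were called lower, namely Pdp1 (-0.21, adjusted p = 0.0312), the phosphatase that activates pyruvate dehydrogenase, and Pdha1 (-0.16, adjusted p = 0.0450), its catalytic subunit (limma). The call of Pdp1 was lost in 4 of 8 fits that left out normal glucose library 6 or high glucose library 1, 2 or 4, and that of Pdha1 in 6 of 8, without normal glucose library 3 or 6 or any 1 high glucose library, and without a trend in the spread both were lost. With BMDM-HG-exo, Pdp1 instead was higher than with PBS (0.25, adjusted p = 0.0261, limma), at 936 to 1194 normalized counts with PBS and 1193 to 1297 with BMDM-HG-exo, a call lost in 5 of 12 fits that left out PBS library 1 or 4 or BMDM-HG-exo library 2, 3 or 4. It was also lost without a trend in the spread. The largest change of this list in high glucose was a rise, 0.61 for Pcx, pyruvate carboxylase, which did not pass. Pcx stood at 61.9 to 97.6 normalized counts in normal glucose and 78.5 to 171 in high glucose. Of the 13 genes, 5 had a log2 fold change above 0 there.

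Among 11 listed cytosolic counterparts and genes that refill the cycle, Idh1, the cytosolic NADP-dependent isocitrate dehydrogenase, rose in high glucose from 10360 to 11740 normalized counts in normal glucose to 14400 to 16180 (log2 fold change 0.46, adjusted p = 7.1e-11, limma). For its mitochondrial relative Idh2 the value was -0.22, given above. Me1, the cytosolic malic enzyme, was higher (0.56, adjusted p = 0.0138) and Got1, an aspartate aminotransferase, lower (-0.23, adjusted p = 0.00758, limma), Me1 failing the threshold without normal glucose library 1 or high glucose library 2 or 6 and Got1 without normal glucose library 5, and both without a trend in the spread. With BMDM-HG-exo against PBS, Gpt2, the mitochondrial alanine aminotransferase, rose by 0.45 (adjusted p = 0.00337, limma), where 1.76% of all genes were called higher.

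A list of 10 genes held those that handle or carry itaconate and its neighbours, together with the dioxygenase Tet2, which does neither. Of the 10, only Tet2 passed in high glucose, at -0.16 (adjusted p = 0.00793, limma), with 13.3% of all genes called. Its call was lost without a trend in the spread, and 0 of the 10 passed in the 4 exosome comparisons. Slc25a10, the mitochondrial dicarboxylate carrier, had a log2 fold change of -0.23 for BMDM-HG-exo against PBS (adjusted p = 0.0992) that passed with the label dates as a block (adjusted p = 0.0381, limma). Suclg2, Suclg1 and Sucla2 are counted in this list and among the cycle genes.

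The electrophile response was followed as a list of 12 genes, with Keap1 and Nfe2l2 themselves, targets of Nrf2, and Atf3 and Nfkbiz, which belong to a branch of the response apart from Nrf2. These genes need not move in the same direction, so the count of genes called is no measure of the response. In high glucose 9 of 12 rose, where 7.74% of all genes were called higher, among them Gclm, a subunit of the enzyme that limits glutathione synthesis (0.92, adjusted p = 1.4e-16), Txnrd1 (0.69, adjusted p = 8.24e-16), Hmox1, heme oxygenase 1 (0.56, adjusted p = 1.39e-12), and Gsr, glutathione reductase (0.55, adjusted p = 8.11e-10, limma). Nfkbiz was also among the 9, at 0.50, and Atf3 did not pass, at -0.003. With 1 library left out, 8 to 10 rose. In BMDM-HG-exo and in BMDM-NG-exo against PBS, 1 of the 12 fell, Nfkbiz, at -0.44 and -0.50 (adjusted p = 1.04e-05 and 1.98e-06, limma), and 0 rose. Of all genes, 3.08% and 2.11% were called lower in these 2 comparisons. Gclm lay at 4819 to 5102 normalized counts with BMDM-HG-exo and at 4492 to 5480 with PBS.

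Inflammatory and interferon genes, the setting in which Acod1 is usually induced, showed differences in both experiments. A link between these genes and the values of Acod1 was not tested. Of 12 listed genes, 8 rose in high glucose, where 7.74% of all genes were called higher, among them the interferon-induced Ifit1 (0.98, adjusted p = 1.84e-11), Ifit3 (0.91, adjusted p = 4.4e-10), Irf7 (0.60, adjusted p = 2.87e-06) and the cytokine Tnf (0.74, adjusted p = 8.64e-06, limma), while Nos2, Il6, Il12b and Il1a were not listed. Without a trend in the spread only 4 of them passed, and 7 to 9 passed with 1 library left out. In the exosome recipients, 9 of 12 fell with BMDM-HG-exo against PBS, where 3.08% of all genes were called lower, and 8 of 12 fell with BMDM-NG-exo against PBS, where 2.11% were. With 1 library left out these counts were 9 in each fit and 6 to 8, and without a trend 8 and 4.

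Irf7 fell by 0.89 and Ifit3 by 1.02 on the log2 scale with BMDM-HG-exo (adjusted p = 1.37e-09 and 4.31e-08, limma), Ifit1 by 0.83 and Stat2 by 0.46. With BMDM-NG-exo these 4 genes fell by 0.78, 0.92, 0.69 and 0.42. Cxcl10, an interferon-induced chemokine, stood at 99.7 to 164 normalized counts with PBS, 63.8 to 81.3 with BMDM-NG-exo and 38.6 to 55.4 with BMDM-HG-exo. Between the exosome groups 0 of the 12 passed. These lists were drawn up with results of these libraries known and are no independent evidence of a direction.

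Macrophage markers also differed between these groups, though not all in the same direction. Against PBS, 5 of the 8 were lower with either kind of exosome (Fcgr1, Itgam, Csf1r, Cd14 and Adgre1, by 0.60, 0.38, 0.26, 0.32 and 0.21 on the log2 scale with BMDM-HG-exo), where 3.08% of all genes were called lower with BMDM-HG-exo and 2.11% with BMDM-NG-exo. Cd68 and Mertk had higher means with both kinds of exosome than with PBS and did not pass. Cd68 stood at 28740 normalized counts with PBS, 30760 with BMDM-NG-exo and 30300 with BMDM-HG-exo. Mertk stood at 5689, 6045 and 5836 in the same order. The summed level of the 8 was 794500 to 841200 normalized counts with PBS, 717500 to 774000 with BMDM-NG-exo and 735100 to 759600 with BMDM-HG-exo. Lyz2, which encodes lysozyme and did not pass in these comparisons, made up most of that sum, at a mean of 597400 normalized counts with PBS. Fcgr1 and Itgam were also lower with BMDM-HG-exo than in the combined controls, where 0.132% of all genes were called lower, Fcgr1 losing its call with the dates as a block (adjusted p = 0.0781, limma), without any 1 PBS library, or without BMDM-HG-exo library 1, 2 or 3, and Itgam without BMDM-HG-exo library 1 or 2. With the block, Txnrd1 (adjusted p = 0.0468) and Itgam (adjusted p = 0.0235, limma) also passed between the exosome groups. In high glucose the summed marker level was 808000 to 878700 normalized counts against 628400 to 702900 in normal glucose, with 4 markers higher (Csf1r, Lyz2, Cd14, Adgre1) and 2 lower (Mertk, Cd68), where 7.74% of all genes were called higher and 5.53% lower. Adgre1 kept that call in 2 of 8 fits with 1 library left out, failing except without normal glucose library 3 or 6. Without a trend, 1 of the 8 markers passed for BMDM-NG-exo against PBS. The part of these markers in the values of Acod1 was not tested.

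**Figure D5:**
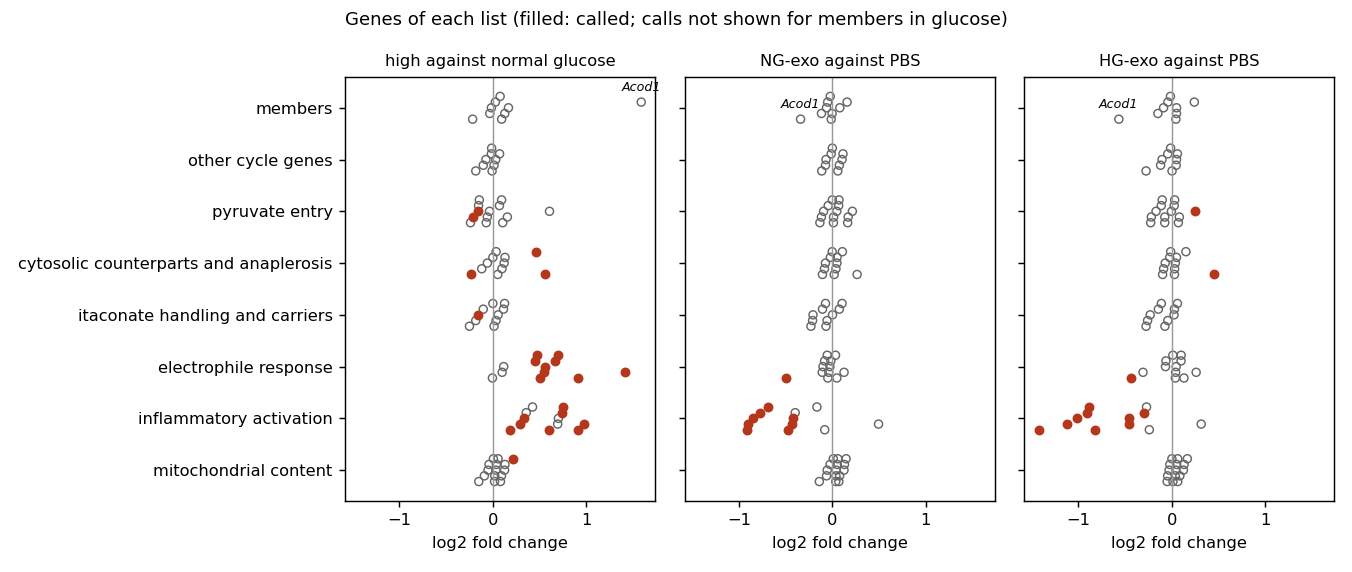
Log2 fold change of every gene of 8 lists (rows) in 3 comparisons (panels), with filled points for genes that passed the test and open points for the rest. The members are open in the glucose panel because their calls are not shown for the contrast known when they were chosen. The cycle lists cluster around 0, Acod1 stands at 1.59 in high glucose and at -0.57 with HG-exo, and 9 electrophile response genes are filled for high glucose.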

How the data were processed

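The authors trimmed reads with cutadapt, aligned them to GRCm38 with STAR, counted them by strand with featureCounts and divided the counts by DESeq2 size factors. The deposited values are this normalized signal, 1 column per library. No column lacked a sample. The annotation used for counting was not given in the sources used here. Symbols came from GENCODE M21 (14421 of 14456 identifiers). Whole reads were recovered from the steps of the values (100.0% within 0.01 of a whole number in each library) for the alternatives.

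The main test was limma 3.58.1 (R 4.3.3, eBayes with trend) on log2(normalized count + 1) for genes with a mean of at least 10, tested on simulated data, with Benjamini-Hochberg adjustment over all genes, called under 0.05 and, for exosomes, with a log2 fold change of 0.15 or more in size. Alternatives included edgeR 4.0.16 and DESeq2 1.42.0. The members and gene lists were chosen with earlier results of these data known. Of each list, genes named were those called, up to 4 a direction by smallest p, or the 2 with the largest change; the 5 genes most like Acod1 were taken by Pearson's r. A few others were named after their values were seen, and 2 list genes are not reported here.

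Exosome libraries of the 3 groups share 4 label dates, which pair them. The mean correlation of deviations from group means was 0.01 over 12 same-date pairs and 0.00 over 36 others.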

Additional observations from a re-analysis of the deposited data

Results flagged for a closer look

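In 1 of 45 combinations of member and group, a library stood far from the other 3 of its group. Idh3a had 802.1 normalized counts in BMDM-HG-exo library 3, the highest of its group, while the other libraries of that group lay between 738.6 and 741.5, so that the gap took 0.954 of the whole range. Chance flags about 1 in 20 groups at this limit.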

How the results depend on the processing

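Of 1035 values of members recomputed under an alternative, 0 reversed a call. Few of them could, since a reversal needed a call in the reported fit or, for exosomes, in the alternative. No member was called in the reported fit of any exosome comparison. In high glucose, whose result was known when the members were chosen, only fold changes of the members are given. Over 11 other settings with all libraries, the log2 fold change lay between 1.54 and 2.04 for Acod1 and between 0.08 and 0.17 for Cs. It lay between -0.23 and -0.17 for Idh2 and between 0.08 and 0.13 for Mdh2. Among these settings was the library number as a replicate block, which only libraries 1 and 6 share. That block moved Cs to 0.08 and Idh2 to -0.17. Of the other list genes, Pdp1, Pdha1, Me1, Got1, Tet2, Nqo1, Letm1 and Adgre1 lost their calls in high glucose under that block and also without a trend. Those numbers are not stated to mark a shared origin (mean correlation 0.01 over 2 pairs). Over fits with 1 library left out, the log2 fold change in high glucose lay between 1.35 and 1.79 for Acod1 and between 0.14 and 0.19 for Cs. For Idh2 it lay between -0.24 and -0.17, and for Mdh2 between 0.09 and 0.15. For BMDM-HG-exo against PBS the count of members called ranged from 0 to 1 over such fits. Idh3a passed without PBS library 4 and Acod1 without BMDM-HG-exo library 4. The date block left 0 members called in each exosome comparison, and beyond the list genes given above it changed no call among the genes of the lists. Over all genes, high against normal glucose gave 1914 calls, 654 without a trend and 788 with the block, with 1904 by edgeR and 2144 by DESeq2 on the recovered reads. BMDM-HG-exo against PBS gave 698, and 295 without a trend. BMDM-NG-exo against PBS gave 432, and 95 without a trend. BMDM-HG-exo against the combined controls gave 29, and 1 without BMDM-HG-exo library 1 or without a trend, 127 by DESeq2, 204 without BMDM-NG-exo library 3 and 322 in 1 fit of all 20 libraries, and BMDM-HG-exo against BMDM-NG-exo gave 2, and between 0 and 22. The cause was not tested. With 57 to 304 reads, Acod1 is the member whose precision depth limits most.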
